A study of Mus musculus with 6 samples.

Results

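The 7 subunit isoforms of AMP-activated protein kinase (AMPK) were read from real-time PCR plates of mature 3T3-L1 adipocytes. They are *Prkaa1* and *Prkaa2* (α1 and α2), *Prkab1* and *Prkab2* (β1 and β2), and *Prkag1*, *Prkag2* and *Prkag3* (γ1, γ2 and γ3), chosen by name from the 84 genes of a fatty acid metabolism plate, with 1 well per gene. 3T3-L1 is a murine preadipocyte line that was brought to terminal differentiation by day 14, and the cells had then received 500 ng/ml recombinant murine IL-15 (rmIL-15) for 24 hours (3 samples) or were left untreated, at 0 ng/ml (3 samples). Whether the 3 samples of a group came from separate cultures is not stated in the sources used here, so a p-value reflects the scatter among these samples, which could be technical. Which samples were treated was taken from their titles, with which the tables' group names agree. Every direction below rests on the titles, because 1 other label contradicts them.

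AMPK is a kinase that senses the energy state of the cell. It is built from 1 catalytic α subunit, 1 β subunit that holds the complex together and binds glycogen, and 1 γ subunit that binds adenine nucleotides. When AMP is high relative to ATP the kinase is active and turns the cell from building fat toward burning it. In fat cells it is known to phosphorylate hormone-sensitive lipase and acetyl-CoA carboxylase, whose product malonyl-CoA restrains entry of fatty acids into mitochondria. Each subunit type has several isoforms from separate genes, and γ3 is best known from skeletal muscle.

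The promoters of 2 pairs of isoforms are shown first, α1 with α2, and γ1 with γ3, each of these genes having 1 annotated start site, so that the genes behind the wells can be compared. Each line gives the 250 bases upstream of the start site annotated by RefSeq on mouse GRCm38.p6, read 5′ to 3′ on the strand of the gene, with every CG dinucleotide in capitals. The positions are chr15:5143611-5143860 on the plus strand for *Prkaa1*, and on the minus strand chr4:105109899-105110148 for *Prkaa2*, chr15:98831509-98831758 for *Prkag1* and chr1:74748956-74749205 for *Prkag3*.
Prkaa1: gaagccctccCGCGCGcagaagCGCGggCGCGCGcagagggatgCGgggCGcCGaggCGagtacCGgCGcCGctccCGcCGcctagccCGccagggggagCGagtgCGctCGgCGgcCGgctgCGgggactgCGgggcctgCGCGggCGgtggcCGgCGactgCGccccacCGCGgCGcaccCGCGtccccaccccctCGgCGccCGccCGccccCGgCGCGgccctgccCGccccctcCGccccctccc
Prkaa2: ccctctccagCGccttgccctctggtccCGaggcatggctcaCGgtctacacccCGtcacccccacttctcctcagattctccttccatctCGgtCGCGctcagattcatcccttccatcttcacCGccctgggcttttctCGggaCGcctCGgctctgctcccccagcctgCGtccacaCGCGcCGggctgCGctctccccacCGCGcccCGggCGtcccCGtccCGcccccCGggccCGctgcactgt
Prkag1: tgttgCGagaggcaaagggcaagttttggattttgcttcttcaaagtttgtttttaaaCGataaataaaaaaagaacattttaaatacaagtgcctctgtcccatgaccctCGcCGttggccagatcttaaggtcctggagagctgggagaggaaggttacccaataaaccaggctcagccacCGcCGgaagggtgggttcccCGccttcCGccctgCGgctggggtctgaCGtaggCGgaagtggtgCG
Prkag3: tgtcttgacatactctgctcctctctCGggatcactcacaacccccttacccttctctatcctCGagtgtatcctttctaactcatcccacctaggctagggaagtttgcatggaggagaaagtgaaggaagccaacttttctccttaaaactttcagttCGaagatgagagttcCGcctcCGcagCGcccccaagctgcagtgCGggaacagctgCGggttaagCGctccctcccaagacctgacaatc

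All 7 genes matched a RefSeq promoter. The *Prkaa1* window held 45 CG dinucleotides, a number reached by 0.405% of the 32851 mouse promoters of the same length, whose median was 6. The window of *Prkaa2* held 24, which 12.0% of promoters reached. *Prkab1* had 24 and *Prkab2* 18, and the 3 annotated start sites of *Prkag2* had 23, 4 and 34. Among the γ isoforms with 1 start site, *Prkag1* had 12 and *Prkag3* had 9. The E-box CAGCTG, which reads the same on both strands and is known as a motif of myogenic factors, was found 1 time before *Prkag3* and 0 times before the other subunits. It was in 13.0% of all promoters, and a match of letters does not show that anything binds there.

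The threshold cycle (Ct) is the PCR cycle at which the signal of a well crosses a set line. Where the product doubles in every cycle, reaching that line 1 cycle sooner means 2 times as much RNA. All 7 subunit wells were under Ct 32 on all 6 plates, so each passed the filter, which kept 74 genes that stayed under Ct 35 throughout 1 group or both. The 5 adipocyte markers on the plate were all under 35 on every plate, with Ct between 16.4 and 23.2, *Fabp4* being the earliest, while 0 of 2 liver and 0 of 2 intestinal markers were under 35 on every plate. Both muscle markers were under 35 on every plate, as was *Cpt1c*, the 1 brain marker on the plate, at Ct 27.7 to 29.0. Plates differed among themselves, since the median Ct of the 74 genes ran between 25.1 and 25.8, while the positive PCR control stayed between 19.2 and 19.3. The reverse transcription control varied more, between 21.95 and 22.85, and was latest on rmIL-15 sample 1. The arrays hold RNA of whole cultures, in which fewer cells of a type and less RNA per cell cannot be told apart.

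*Prkaa1*, the α1 catalytic subunit, had the earliest Ct of the 7, at 25.85, 24.94 and 25.16 in the rmIL-15 samples against 25.06, 24.94 and 25.72 in the untreated samples. The groups overlapped, and the late plates were rmIL-15 sample 1 and untreated sample 3. *Prkaa2*, the α2 catalytic subunit, stood at 28.63, 28.66 and 28.64 in the rmIL-15 samples against 28.53, 28.48 and 28.42 in the untreated samples. Every treated sample was later than every untreated one, although the whole range of the 6 wells was narrow.

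*Prkab1*, encoding β1, read 26.455, 26.461 and 26.632 with rmIL-15 and 26.635, 26.724 and 26.693 without it. Here each treated sample was earlier than each untreated one, though rmIL-15 sample 3 and untreated sample 1 were almost level. *Prkab2*, encoding β2, read 27.64, 26.81 and 27.39 with rmIL-15 and 26.96, 27.02 and 27.36 without it, and the groups overlapped.

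Among the nucleotide-binding subunits, *Prkag2* (γ2) was earliest, at 25.93, 25.48 and 25.42 in treated and 25.28, 25.31 and 25.96 in untreated cells. *Prkag1* (γ1) followed at 27.34, 26.64 and 26.97 in treated and 26.35, 26.83 and 27.46 in untreated cells. *Prkag3* (γ3) was the latest of all 7, at 30.88, 30.16 and 30.58 in treated and 31.84, 30.68 and 31.53 in untreated cells. Both *Prkag1* and *Prkag2* overlapped between the groups. So did *Prkag3*, since the earliest untreated sample came before the latest treated one, although untreated sample 1 was the latest *Prkag3* well of the 6.

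**Figure D1:**
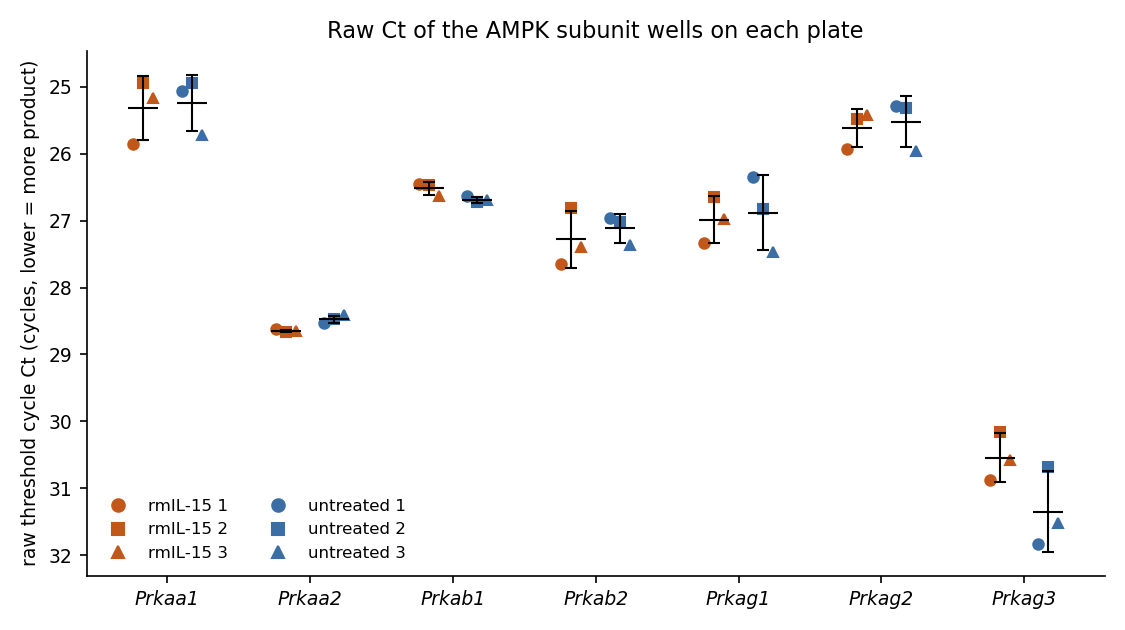
Raw Ct (cycles) of the 7 AMPK subunit wells, with earlier cycles meaning more template, for 3 rmIL-15 plates and 3 untreated plates, each point being 1 well, with the group mean and SD. *Prkaa1* and *Prkag2* lie near 25 to 26 cycles and *Prkag3* near 30 to 32, and the *Prkaa2* wells lie close together.

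In order of mean Ct over the 6 plates the subunits ran *Prkaa1*, *Prkag2*, *Prkab1*, *Prkag1*, *Prkab2*, *Prkaa2* and *Prkag3*. *Prkag2* was later than *Prkaa1* on 6 of 6 plates, by 0.285 ± 0.156 cycles (SD, n = 6). *Prkag1* was later than *Prkab1* on 5 of 6 plates (0.331 ± 0.436 cycles), and *Prkab2* later than *Prkag1* on 5 of 6 (0.266 ± 0.241 cycles). The place of *Prkag1* between the 2 β subunits was thus not kept on every plate. Within this middle group *Prkab2* was later than *Prkab1* on 6 of 6 plates. The steps on either side of that middle group were larger, at 1.04 ± 0.355 cycles between *Prkag2* and *Prkab1* and 1.36 ± 0.329 cycles between *Prkab2* and *Prkaa2*. Among all 84 genes, 35 had a lower mean Ct than *Prkaa1* and 65 a lower one than *Prkag3*. A difference between wells is a difference in RNA only if both wells amplify alike, and neither the efficiencies nor the amplicon lengths are given in the sources used here.

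The isoforms of each type were then set against each other on the same plate, where the reference gene cancels. The *Prkaa2* well was later than the *Prkaa1* well by 2.77, 3.71 and 3.49 cycles in treated and 3.47, 3.54 and 2.69 cycles in untreated cells. Over the 6 plates this made 3.28 ± 0.433 cycles, or 9.71 times as much α1 as α2 RNA at a doubling per cycle. For the β subunits the step from *Prkab1* to *Prkab2* was small, at 1.19, 0.345 and 0.754 cycles in treated and 0.326, 0.299 and 0.670 cycles in untreated cells, a ratio of 1.51.

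The *Prkag1* well was later than the *Prkag2* well by 1.37 ± 0.195 cycles in treated and 1.36 ± 0.257 cycles in untreated cells (SD, n = 3 each), a ratio of 2.58 over all plates. *Prkag3* was later than *Prkag1* by 4.01 ± 0.754 cycles and later than *Prkag2* by 5.38 ± 0.655 cycles over the 6 plates, ratios of 16.1 and 41.7. The sign of each of the 5 differences was the same on 6 of 6 plates (exact sign-flip test, two-sided, p = 0.03125, the smallest that 6 plates allow). The 3 γ pairs share wells and are not independent of each other.

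Written as shares of the summed signal of a type, *Prkaa1* held 90.6 ± 3.02% of the α signal in treated and 90.1 ± 3.07% in untreated cells. *Prkab1* held 62.7 ± 6.78% of the β signal in treated and 57.4 ± 3.47% in untreated cells. *Prkag2* held 70.4 ± 2.88% of the γ signal in treated and 70.9 ± 3.24% in untreated cells, and *Prkag1* held 27.3 ± 2.59% and 27.7 ± 3.78%. The rest was *Prkag3*, with 2.29, 2.63 and 2.04% in treated against 0.713, 1.76 and 1.53% in untreated cells. These shares assume a doubling per cycle in every well.

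**Figure D2:**
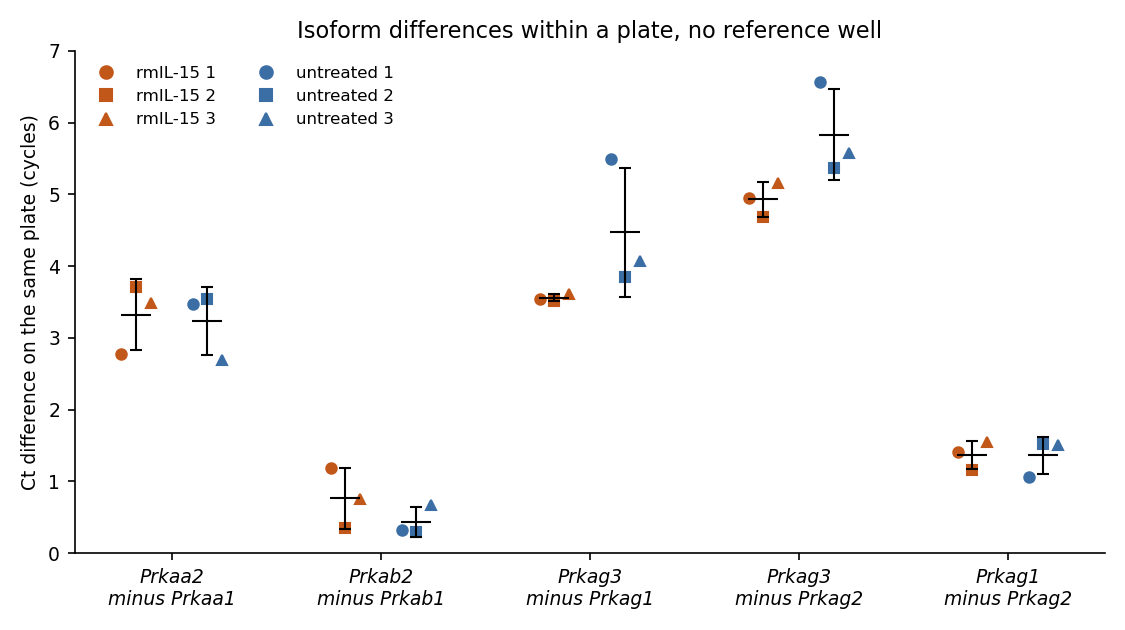
Within-plate Ct difference (cycles) of 5 pairs of AMPK isoforms for 3 rmIL-15 plates and 3 untreated plates, each point being 1 plate, with the group mean and SD. All differences lie above 0, and the 2 pairs with *Prkag3* have the treated plates below the untreated ones.

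The question of the array was whether rmIL-15 alters fatty acid metabolism genes in fat cells, and for AMPK it can be asked whether the balance of isoforms differed with treatment. The samples of the groups lay apart in the balance of γ3 against the other γ isoforms and overlapped in the rest. *Prkag3* was 3.55, 3.52 and 3.61 cycles later than *Prkag1* in treated cells, against 5.49, 3.85 and 4.07 cycles in untreated cells. Against *Prkag2* it was 4.95, 4.68 and 5.16 cycles later in treated cells and 6.56, 5.37 and 5.57 cycles later in untreated cells. In both pairs the treated and untreated plates did not overlap, and *Prkag3* was nearer to its partner in the treated plates.

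The difference between groups was -0.91 cycles for *Prkag3* against *Prkag1*, a 1.88-fold higher ratio with rmIL-15, and -0.90 cycles against *Prkag2*, a 1.87-fold higher ratio. Both gave p = 0.1 by a two-sided exact permutation test, the lowest value a 3 against 3 design can give, and 0.25 after Benjamini-Hochberg adjustment over the 5 pairs. A limma fit over the 5 pairs put the differences at -1.68 to -0.14 and -1.67 to -0.13 cycles (95% intervals), with an adjusted p of 0.061 for each. That fit pooled the spread of all 5 pairs as if they shared no wells. Against *Prkag1* the SD was 0.049 cycles in treated and 0.892 in untreated plates, and against *Prkag2* 0.241 and 0.637. The intervals therefore do not rest on the spread of each pair alone, and cannot show that its difference leaves out 0. Of the 2556 pairs that the tested genes with a value on every plate can form, 14.9% did not overlap between the groups. Untreated sample 1 carried much of the size, since without it the differences were -0.40 cycles against *Prkag1* and -0.54 cycles against *Prkag2*.

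The other 3 pairs overlapped between the groups. The difference between treated and untreated cells was 0.088 cycles for *Prkaa2* against *Prkaa1* (limma 95% interval -0.68 to 0.86), 0.33 cycles for *Prkab2* against *Prkab1* (-0.44 to 1.10) and 0.0085 cycles for *Prkag1* against *Prkag2* (-0.76 to 0.78). Their exact permutation p-values were 0.6, 0.2 and 1. The fit gave all 5 pairs the same standard error (0.37 cycles), so these intervals also carry the spread of the *Prkag3* pairs. With 3 samples per group, an overlap does not show that a balance stayed the same.

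For single subunits, each Ct was taken from that of the well annotated *Gapdh* on its plate, so that a higher value on this log2 scale stands for more RNA. *Prkag3* was at -5.26, -5.00 and -5.06 in treated against -6.60, -5.50 and -5.56 in untreated cells. All treated values were higher than all untreated ones, with a log2 fold change of 0.78 (SE 0.32, 95% interval -0.0082 to 1.56), or 1.71-fold. By limma its unadjusted p was 0.0517 and its adjusted p over the 74 genes 0.48, so *Prkag3* did not pass. Without untreated sample 1 the log2 fold change was 0.42 (SE 0.14), with an unadjusted p of 0.033 and an adjusted p of 0.49 by limma. The unadjusted p by limma was 0.081, 0.120 and 0.116 without rmIL-15 sample 1, 2 or 3. It was 0.036 and 0.043 without untreated sample 2 or 3.

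The other 6 subunits lay closer to 0, with groups that overlapped. *Prkaa1* had a log2 fold change of -0.11 (SE 0.18) and *Prkaa2* of -0.20 (SE 0.28). The β subunits were at 0.14 (SE 0.26) for *Prkab1* and -0.19 (SE 0.17) for *Prkab2*. *Prkag1* was at -0.13 (SE 0.18) and *Prkag2* at -0.12 (SE 0.15). Adjusted p-values by limma of these 6 ran between 0.69 and 0.87.

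Of the 7 subunits, 0 passed an adjusted p under 0.05 by limma (0% of all 74 tested genes) and 0 passed an unadjusted p under 0.05 (9.46% of all genes did, and 1.35% when only higher ones are counted). The groups did not overlap for 1 of 7, *Prkag3*, beside 17.6% of all genes, or 2.7% counting only those higher with rmIL-15. That 2.7% was 2 genes, *Prkag3* itself and *Lipe*, which is described below. The 1.35% was *Lipe* alone, so neither share of higher genes is a background separate from the genes described here. A positive sign was seen in 2 of 7 subunits and in 28.4% of all genes. The median log2 fold change of the subunits was -0.12 and that of all 74 genes -0.11.

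**Figure D3:**
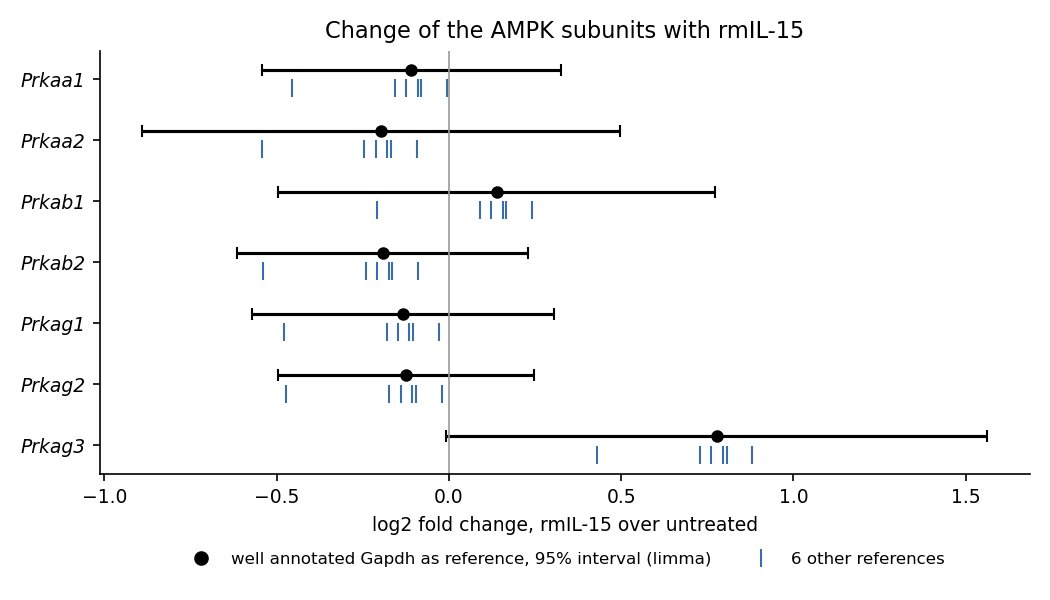
Log2 fold change of the 7 AMPK subunits, rmIL-15 over untreated, with the well annotated *Gapdh* as reference (points, with 95% intervals from limma, n = 3 per group) and with 6 other references (ticks). All intervals include 0, and the *Prkag3* values lie to the right of 0 under every reference shown.

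The choice of reference mattered for whether *Prkag3* separated. Treated and untreated values did not overlap when *Gapdh*, *B2m*, *Gusb*, the mean of 5 reference wells or the plate median was subtracted. They overlapped in raw Ct (a difference of -0.807 cycles, exact permutation p = 0.2) and with *Actb* or *Hsp90ab1*. Its log2 fold change ran between 0.43 with *Hsp90ab1* and 0.88 with *Gusb*. The *Hsp90ab1* well was itself earlier with rmIL-15, by 0.377 cycles (exact permutation p = 0.4), and with it as reference the median of all genes moved to -0.46. Which well is the *Gapdh* of the methods is in doubt, because the well annotated so was later than 38 of the 84 genes and the authors' own normalized values follow from the well annotated *B2m*.

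*Prkag3* is the isoform known from muscle, so the muscle markers of the plate were read beside it. Both of them, *Fabp3* and *Cpt1b*, were measured on every plate at Ct 30.6 to 31.9, and neither was at 0. Their summed log2 level relative to *Gapdh* was -5.09 to -4.64 in treated and -4.95 to -4.08 in untreated cells, ranges that overlap. Their part in the *Prkag3* values was not tested.

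*Prkaa2* and *Prkab1* differed from the other subunits in how little their wells moved between plates. The SD of raw Ct over the 6 plates was 0.0991 cycles for *Prkaa2*, with 0 of the 74 genes smaller, and 0.115 cycles for *Prkab1*, with 2 smaller. The median gene had 0.374 cycles. *Prkag2* had 0.303, *Prkab2* 0.317, *Prkaa1* 0.406, *Prkag1* 0.419 and *Prkag3* 0.627 cycles.

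Subtracting the plate median narrowed *Prkaa1* to 0.177, *Prkab2* to 0.166, *Prkag1* to 0.182 and *Prkag2* to 0.137 cycles. These 4 subunits moved up and down with the plate as a whole. It widened *Prkaa2* to 0.334 and *Prkab1* to 0.302 cycles, and left *Prkag3* at 0.601. A wider spread after the subtraction was thus seen in 2 of 7 subunits and in 25.7% of all genes.

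**Figure D4:**
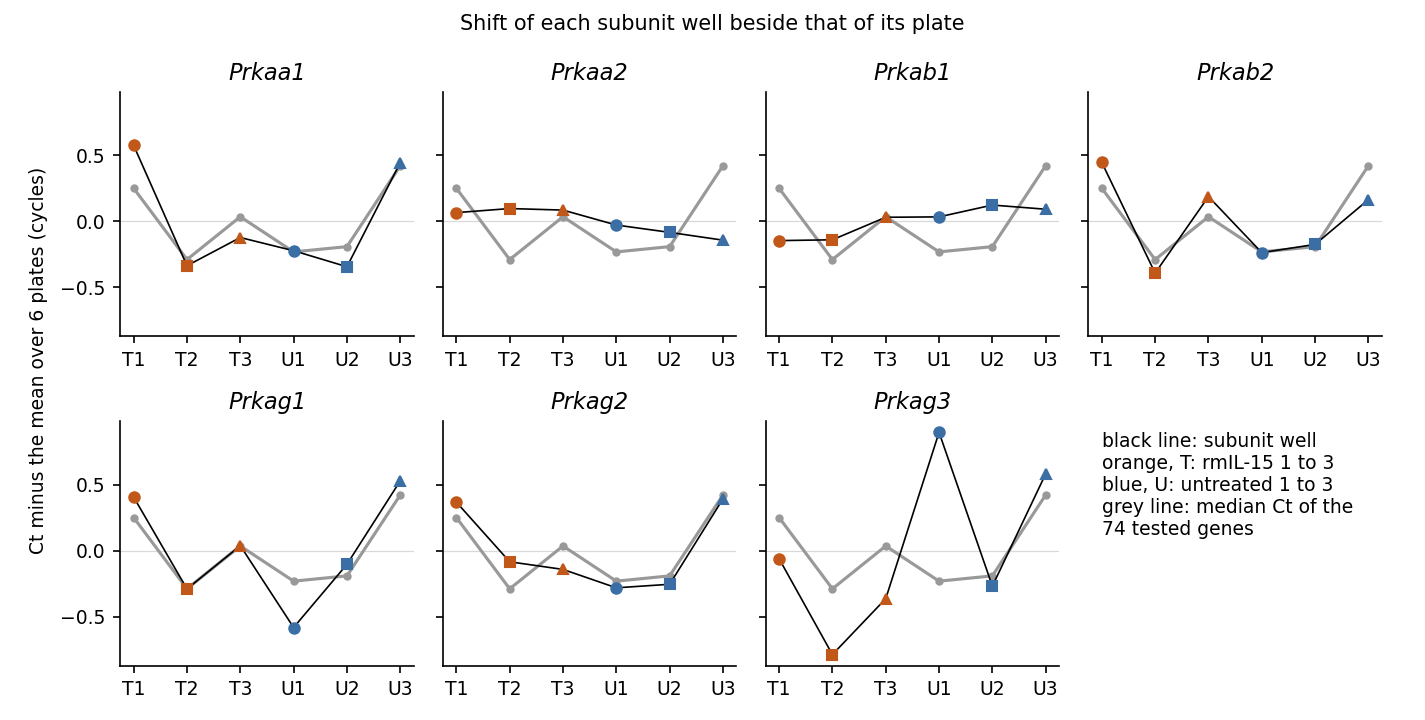
Ct of each subunit well minus its mean over the 6 plates (cycles, black line with orange rmIL-15 and blue untreated points), beside the same for the median Ct of the 74 tested genes (grey line). *Prkaa1*, *Prkab2*, *Prkag1* and *Prkag2* run near the grey line, while *Prkaa2* and *Prkab1* stay close to their own mean on every plate.

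*Prkaa2* and *Prkab1*, whose wells moved little, separated the groups in raw Ct, in opposite directions. *Prkaa2* was later with rmIL-15 by 0.167 cycles and *Prkab1* earlier, with a difference of -0.168 cycles. Each had an exact permutation p of 0.1, the smallest possible, and 8.11% of all genes did not overlap in raw Ct. In a limma fit of raw Ct, which borrows the spread of all genes, the adjusted p of each was 0.999. After subtraction of *Gapdh*, *B2m*, *Actb*, *Gusb*, the mean of 5 wells or the plate median both overlapped, and with *Hsp90ab1* only *Prkaa2* still separated. 

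The genes whose pattern was most like a subunit were sought among the 68 other genes measured on every plate, by Pearson's r over the 6 plates after each plate's median was removed. The nearest were *Acat1* for *Prkaa2* (r = 0.97), *Crot* for *Prkab1* (0.91) and *Acsl5* for *Prkag3* (0.92). *Prkag1* was nearest to *Acaa2* (0.85), *Prkab2* to *Acsl3* (0.78) and *Prkag2* to *Lpl* (0.73). *Prkaa2* and *Prkab1* were also like each other (0.80) after that subtraction. Their raw Ct varied little (SD 0.0991 and 0.115 cycles) beside the plate median (SD 0.288 cycles). Both series therefore largely held the same median with its sign turned, and their r values say little about the wells themselves. In raw Ct these 2 wells differed between the groups in opposite directions. All points share the plate and its median, and with 6 points these values only describe the wells.

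A list of 4 genes linked to AMPK in lipid handling, *Lipe* and the *Cpt1* isoforms, was tested on the plate. *Lipe*, the hormone-sensitive lipase that AMPK phosphorylates, had a log2 fold change of 0.51 (SE 0.16) with non-overlapping groups, an unadjusted p of 0.020 and an adjusted p of 0.47 by limma. That unadjusted call was lost with *B2m* (p = 0.058 by limma, the same with the authors' values), *Actb* (0.073), the mean of 5 wells (0.118), *Hsp90ab1* (0.80, with a log2 fold change of 0.16) and in raw Ct (0.136). It was also lost without rmIL-15 sample 1 (0.052), untreated sample 2 (0.060) or untreated sample 3 (0.054), and without the 2 plates of latest median Ct (0.080). *Cpt1a* and *Cpt1b*, which start the transport of long-chain fatty acids into mitochondria and are inhibited by malonyl-CoA, were at 0.14 (SE 0.23) and -0.20 (SE 0.29). *Cpt1c*, known as a brain isoform of the endoplasmic reticulum with little such activity, was at -0.059 (SE 0.61). Thus 0 of the 4 passed an adjusted p under 0.05 and 1 passed the unadjusted one (9.46% of all genes did), with a median log2 fold change of 0.041. The groups did not overlap for 1 of the 4, *Lipe*, beside 17.6% of all genes, or 2.7% counting only those higher with rmIL-15. That 2.7% was *Lipe* itself and *Prkag3*. *Prkaca*, a catalytic subunit of protein kinase A, which phosphorylates the same lipase, was at -0.20 (SE 0.13, adjusted p = 0.60 by limma). The array reads transcript levels and not the phosphorylation of AMPK or of its targets.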

How the data were processed

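RNA of 6 samples (400 ng each) was run on a SYBR green PCR array plate of 96 wells per sample. The authors deposited raw Ct (cycles, not normalized) and normalized values on a log2 scale, which follow from taking away the *B2m* well, with deviations up to 3.55e-15 cycles. The methods name GAPDH and the table header an average of housekeeping genes. 6 further per-sample columns and the authors' table of fold changes were not used.

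Ct above 35 or undetermined was set to 35, the well annotated *Gapdh* subtracted and the sign turned. The 74 genes that stayed under 35 throughout 1 group or both entered a limma 3.58.1 fit (R 4.3.3), with Benjamini-Hochberg adjustment. Isoform pairs used within-plate Ct differences, with exact sign-flip and permutation tests, all two-sided, and limma. Figures were drawn with matplotlib 3.10.9 (Python 3.11.15). The limma step was tested on simulated data with independent genes and the same spread in both groups. That simulation held no shift shared by a plate, so it does not cover the plate shifts or unequal group spreads seen here. Each well was read 1 time per sample, and 71 to 74 of 84 genes were under Ct 35 on a plate.

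Promoter sequences are from RefSeq (GRCm38.p6). No source names a build for the array. The text names the 7 subunits, the tested genes fixed as AMPK-linked, the nearest gene of each subunit and reference or marker genes. Members and lists were chosen with earlier results of these data known. Some genes that these rules give are not reported here. The alternatives were other references, other filters and Ct limits, a robust fit, the methods' t-test, the authors' values, a replicate block and leaving out each sample. Raw Ct without a reference, and leaving out the 2 plates with the latest median Ct, were added after seeing the data.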

Additional observations from a re-analysis of the deposited data

How the results depend on the processing

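No subunit passed an adjusted p under 0.05 in any of the 21 alternatives. At an unadjusted p under 0.05, 7 of all genes passed with *Gapdh*, 3 with *B2m*, 2 with *Hsp90ab1*, 3 with the authors' values, 3 in raw Ct and 4 to 7 when 1 sample was left out. Of the subunits 0 passed with *Gapdh* and 1, *Prkag3*, with the mean of 5 wells, *Actb*, *Gusb*, the plate median, only genes under Ct 35 on all plates, or a robust fit. Leaving out 1 sample gave 0 to 1.

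With the replicate number as a block, 4 genes passed the unadjusted threshold, and 1 subunit, *Prkag3* (log2 fold change 0.78, unadjusted p = 0.035, adjusted p = 0.74 by limma). Paired by number, the isoform pairs had exact sign-flip p-values of 0.75, 0.25, 0.25, 0.25 and 1. With 3 paired samples this sign-flip test cannot give a p under 0.25, so it could not have called any pair. The deviations of same-numbered samples were not alike (r = -0.27, 0.092 and -0.27), and those of differently numbered samples ran between -0.41 and 0.56, the highest for rmIL-15 sample 1 with untreated sample 3. The labels' numbers were therefore not used as pairs.

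Signs changed for small log2 fold changes. *Prkaa1* was 0.064 without rmIL-15 sample 1 and 0.073 without that and untreated sample 3. *Prkaa2* was 0.084 without untreated sample 3. *Prkab1* was -0.21 with *Hsp90ab1* and -0.024 without untreated sample 2. *Prkab2* was 0.024 without the 2 late plates, and *Prkag1* 0.023 without untreated sample 1. *Cpt1a* was -0.21 with *Hsp90ab1* and -0.051 without untreated sample 1. *Cpt1b* was 0.067 without untreated sample 3 and 0.25 without the 2 late plates. *Cpt1c* was 0.044 with *Gusb*, 0.10, 0.11 and 0.58 without rmIL-15 sample 2, rmIL-15 sample 3 or untreated sample 3, and 0.25 without the 2 late plates.

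With 1 sample left out, the treated minus untreated difference in cycles ran between -0.18 and 0.36 for *Prkaa2* against *Prkaa1* (reversed at -0.11 and -0.18), 0.12 and 0.54 for *Prkab2* against *Prkab1*, -1.22 and -0.40 for *Prkag3* against *Prkag1*, -1.13 and -0.54 for *Prkag3* against *Prkag2*, and -0.14 and 0.11 for *Prkag1* against *Prkag2* (reversed at -0.0086, -0.079 and -0.14). Without the 2 late plates these were 0.093, 0.24, -1.11, -1.04 and 0.062. The ranges of the log2 fold changes were -0.23 to 0.064 (*Prkaa1*), -0.34 to 0.084 (*Prkaa2*), -0.024 to 0.39 (*Prkab1*), -0.29 to -0.063 (*Prkab2*), -0.25 to 0.023 (*Prkag1*), -0.26 to -0.053 (*Prkag2*), 0.42 to 0.97 (*Prkag3*), -0.051 to 0.30 (*Cpt1a*), -0.40 to 0.067 (*Cpt1b*) and -0.46 to 0.58 (*Cpt1c*) with 1 sample left out. The isoform Ct differences themselves stayed between 3.19 and 3.40, 0.479 and 0.657, 3.72 and 4.11, 5.15 and 5.52, and 1.33 and 1.43 cycles in the order α, β, *Prkag3* over *Prkag1*, *Prkag3* over *Prkag2*, and *Prkag1* over *Prkag2*, and 5 plates cannot give a sign-flip p under 0.0625.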
